A study of Mus musculus with 8 samples.

Results

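The ribosome biogenesis genes of mouse liver described here are a list of nucleolar factors chosen by name. Of the 42 listed genes, 40 had a probe set annotated to that gene alone and all 40 passed the filter on low signal, out of 18193 genes with such a probe set and 17790 tested. Npm3 and Mrto4 had none and were skipped. The 40 genes were represented by 83 probe sets, of which 82 were kept. The dropped one belonged to Ncl, and its highest group mean was 39.0 on the linear signal scale.

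RNA came from livers of 8-week-old BALB/c mice that had been injected with a recombinant adenovirus 5 days before surgery. The 4 groups were post-A20, pre-A20, post-βgal and pre-βgal. Mice of the A20 groups received rAd.A20, which encodes human A20, a ubiquitin-editing protein that inhibits NF-κB. Mice of the βgal groups received rAd.βgal, which encodes β-galactosidase, so all 4 groups carried adenovirus and no group was free of it. Surgery was a 78% liver resection. The pre samples were the tissue removed at surgery and the post samples the remnant left 24 h later, so pre and post tissue can come from the same mice, but no source says that pools of the same replicate number do. Each group had 2 Affymetrix arrays, and each array held RNA pooled from 3 mice. The methods put the transduced share at 30 to 40% of hepatocytes, and the extracts were whole liver. For post-A20 the sample records carry a treatment text that names the βgal vector, but their titles say A20 and decided the group.

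Ribosome biogenesis begins in the nucleolus, where RNA polymerase I transcribes the long ribosomal precursor RNA. Small nucleolar ribonucleoproteins (snoRNPs) modify it, box C/D particles by ribose methylation and box H/ACA particles by pseudouridylation, and large sets of helicases, GTPases and scaffold proteins then cut, fold and export the small and large subunits. Hepatocytes that leave quiescence after hepatectomy enlarge their nucleoli and make more ribosomes before they divide, and many of these factors are known targets of Myc.

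The arrays had similar overall brightness, with median signals from 152.6 to 165.8, but RNA integrity was not alike. β-actin signal at the 3′ end of the message, divided by that at the 5′ end, came to 3.64 for post-βgal replicate 1 and 7.0 for pre-βgal replicate 1, with all others between 1.27 and 1.62. Hepatocyte markers were high on all arrays, with a summed signal of 7 genes between 77680 and 91360. Summed signal of 5 neutrophil markers was 1295 and 1595 in the post-A20 arrays and 990.2 and 1012 in the pre-A20 arrays, against 4270 and 5135 in the post-βgal arrays and 1999 and 2726 in the pre-βgal arrays, with no marker at 0. Fewer cells of a type and less RNA per cell cannot be told apart in whole liver.

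The highest levels of the ribosome biogenesis genes were on the post-βgal arrays. Averaged over the 40 genes, log2(signal + 16) was 9.14 and 9.19 in post-A20, 8.84 and 9.15 in pre-A20, 9.85 and 9.60 in post-βgal, and 9.30 and 9.0 in pre-βgal livers, whereas the mean over all 17790 genes lay between 8.33 and 8.38 on every array. In 28 of the 40 genes (70%) both post-βgal arrays were above the other 6 arrays, a pattern found in 9.69% of all genes tested. No member had both post-A20 arrays (6.63% of all genes) or both pre-βgal arrays (9.92%) on top, and 1 member, Nip7, had both pre-A20 arrays on top (8.96%). That holds for the probe set of highest mean, and the other probe set of Nip7 was highest on the pre-βgal arrays. Post-βgal replicate 1 was the highest array for 32 members and post-βgal replicate 2 for 4. At the other end, both pre-A20 arrays were below the other 6 in 8 members (11.3% of all genes), both pre-βgal arrays in 2 (4.87%), and both post-A20 arrays (4.1%) or both post-βgal arrays (12.8%) in none. Pre-A20 replicate 1 was the lowest array for 23 members.

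**Figure D1:**
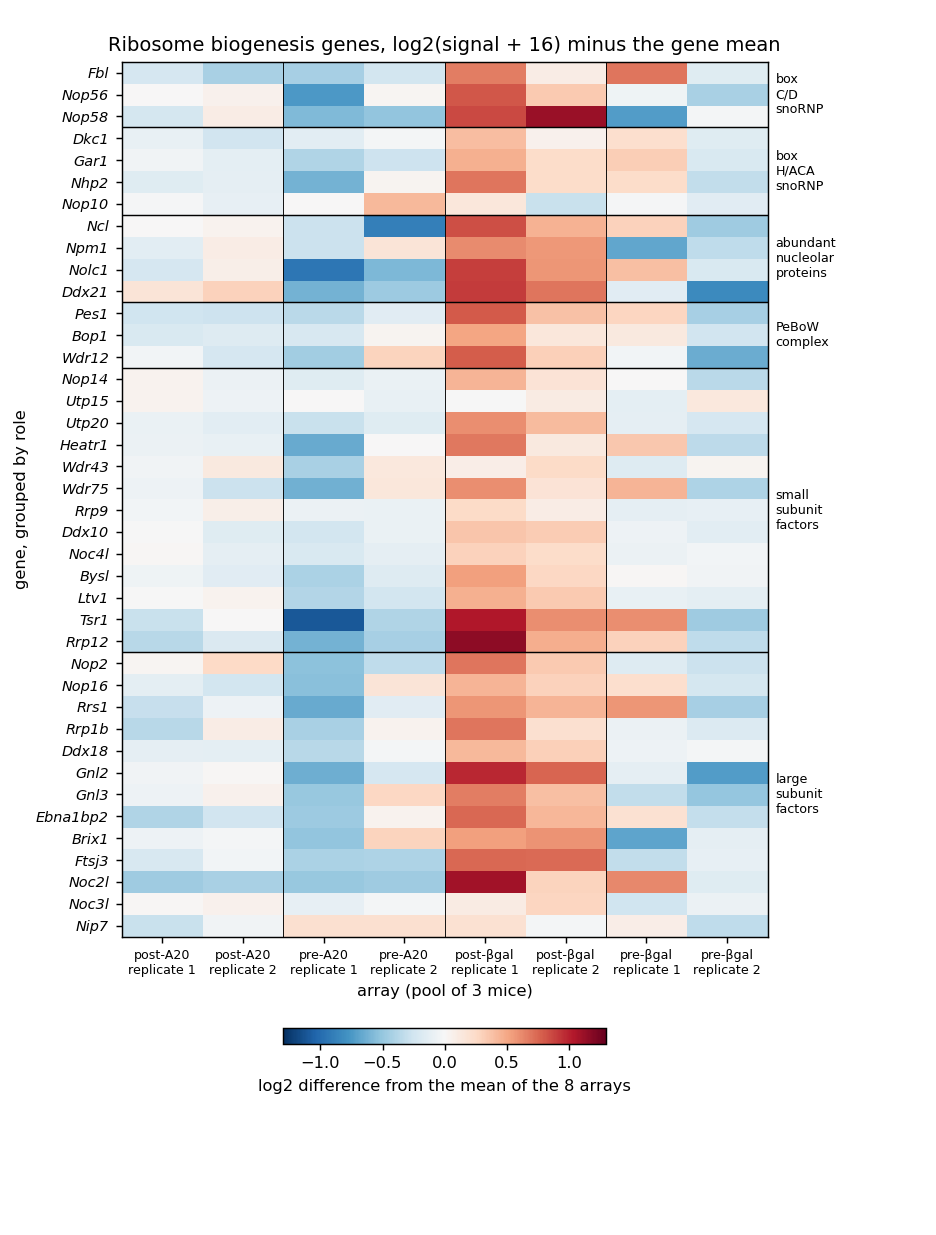
Each row is 1 of the 40 ribosome biogenesis genes, grouped by role, and each column 1 array of a pool of 3 mice. Color gives log2(signal + 16) minus the mean of the gene over the 8 arrays. The post-βgal columns are the reddest, with 28 rows in which both of them exceed all other arrays, and the pre-A20 replicate 1 column holds the lowest value of 23 rows.

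Replicates of a group were not equally close. The members differed between replicate 1 and replicate 2 by a mean log2 of −0.05 in post-A20 livers, −0.31 in pre-A20 livers, 0.26 in post-βgal livers and 0.30 in pre-βgal livers, against −0.01 to 0.02 over all genes. In pre-A20 livers 3 of 40 members were higher in replicate 1, in post-βgal livers 35 and in pre-βgal livers 30. The list as a whole thus differed between arrays of the same group by up to 0.31 on the log2 scale. In both βgal groups replicate 1 was the array of high 3′ to 5′ ratio. A difference between pools and one of RNA integrity cannot be told apart there.

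The first comparison asked how the genes responded to resection in control livers. In post-βgal against pre-βgal livers, 5 members rose with limma at an adjusted p under 0.05 and none fell, whereas 1.5% of all genes rose and 0.748% fell. These 5 were Ftsj3, Nop58, Ddx21, Gnl2 and Npm1. All 40 fold changes were above 0, against 42.5% over all genes, and their median log2 fold change was 0.50, against −0.05 over all genes. In 29 members both post-βgal arrays were above both pre-βgal arrays (20.4% of all genes), and in none were both below (33% of all genes). At an unadjusted p under 0.05, 24 members were higher and none lower, against 9.74% and 12.4% of all genes. Of the 5 neutrophil markers 1, Mmp8, was called higher in the same comparison and 4 had fold changes above 0, and their part in the difference of the members was not tested.

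Ftsj3, the mammalian counterpart of a yeast ribosomal RNA methyltransferase of the large subunit pathway, gave signals of 544 and 540.1 in post-βgal livers, against 252 and 293 in pre-βgal livers. The groups were well apart, with a log2 fold change of 0.95 ± 0.13 (SE, adjusted p = 0.0189). Nop58, a core protein of box C/D snoRNPs, gave 494 and 593 in post-βgal livers, against 153 and 259.6 in pre-βgal livers. It had the largest change of the list, a log2 of 1.37 ± 0.23 (SE, adjusted p = 0.0345). Ddx21, a nucleolar RNA helicase that acts in both transcription and processing of ribosomal RNA, gave 1006 and 864 in post-βgal livers, against 477 and 291 in pre-βgal livers, a log2 fold change of 1.29 ± 0.23 (SE, adjusted p = 0.0384). Gnl2, a nucleolar GTPase of the large subunit pathway, gave 1218 and 1045 in post-βgal livers, against 560.5 and 364 in pre-βgal livers. Its log2 fold change was 1.29 ± 0.24 (SE, adjusted p = 0.0406). Npm1, nucleophosmin, an abundant nucleolar chaperone, gave 3014 and 2901 in post-βgal livers, against 1221 and 1556 in pre-βgal livers, a log2 fold change of 1.09 ± 0.21 (SE, adjusted p = 0.0467). In each of the 5 the groups did not overlap, and the post-βgal arrays were the highest of all 8.

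**Figure D2:**
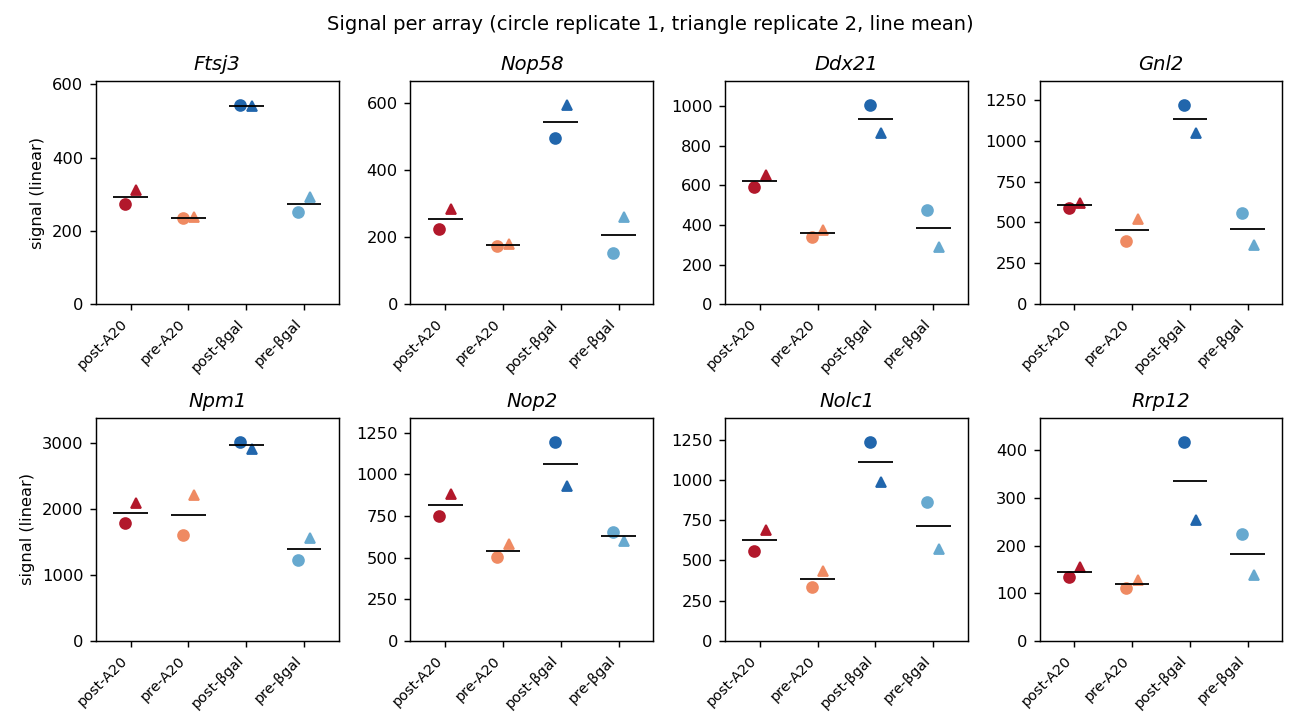
Signal on the linear scale of 8 ribosome biogenesis genes in each array, by group. Circles are replicate 1, triangles replicate 2 and lines the mean of the 2 arrays. In Ftsj3, Nop58, Ddx21, Gnl2 and Npm1 both post-βgal arrays lie above the 6 others, and in Nolc1 and Rrp12 the A20 arrays lie below the βgal arrays of the same time, both before and after resection.

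Among the genes called in post-βgal against pre-βgal livers, Gnl2 and Npm1 had no promoter sequence available. The promoters of the other 3 are given. They are RefSeq sequences on GRCm38.p6, the 250 bases before the annotated start, on the strand of the gene, 5′ to 3′. Capitals mark the GC box GGGCGG, the core GGAAGT of many sites of ETS family factors, and their reverse complements CCGCCC and ACTTCC. The window of Ftsj3 is chr11:106256085-106256334 on the minus strand, that of Nop58 chr1:59684756-59685005 on the plus strand and that of Ddx21 chr10:62602299-62602548 on the minus strand.
Ftsj3: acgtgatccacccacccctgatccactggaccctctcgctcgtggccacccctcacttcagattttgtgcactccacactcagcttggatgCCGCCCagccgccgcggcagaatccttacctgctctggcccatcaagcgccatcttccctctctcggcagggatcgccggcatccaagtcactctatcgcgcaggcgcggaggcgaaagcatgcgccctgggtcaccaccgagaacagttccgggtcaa
Nop58: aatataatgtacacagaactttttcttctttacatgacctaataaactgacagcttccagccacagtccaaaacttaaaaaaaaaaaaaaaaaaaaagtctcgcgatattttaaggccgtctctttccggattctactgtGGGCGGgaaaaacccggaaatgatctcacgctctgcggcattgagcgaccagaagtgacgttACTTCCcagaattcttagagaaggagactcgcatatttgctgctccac
Ddx21: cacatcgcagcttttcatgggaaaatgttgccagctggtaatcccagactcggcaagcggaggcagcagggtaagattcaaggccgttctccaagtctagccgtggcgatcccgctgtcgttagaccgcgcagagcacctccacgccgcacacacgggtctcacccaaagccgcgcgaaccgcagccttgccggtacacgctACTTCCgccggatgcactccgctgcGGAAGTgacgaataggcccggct

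A promoter window of 300 bases, the 250 before and 50 after the start, was found for 36 of the 42 listed genes. Windows of the listed genes had a median GC content of 59.7%, against 58.3% for the 14452 array genes with a window. GGGCGG occurred on either strand in 28 of the 36 (77.8%), against 57.3% of array genes and 38.2% of all 27025 genes with a window. CCGGAAG occurred in 13 (36.1%), against 15% of array genes and 9.93% of all genes, and GGAAGT, which shares bases with it, in 19 (52.8%), against 29% and 26.5%. The E-box CACGTG, which Myc and related proteins bind, occurred in 6 (16.7%), against 10.2% and 8.09%, and its variant CACGCG in 11 (30.6%), against 16.2% and 10.5%. CCAAT was in 13 (36.1%, against 42% and 41.1%), TATAAA in 2 (5.56%, against 11.5% and 15.7%) and TGACGTCA in 1 (2.78%, against 2.92% and 2.03%), and neither CGCATGCG (3.27% and 2.07%) nor the long palindrome bound by Banp (0.865% and 0.525%) was in any of the 36. These 10 motifs were all that were searched, and a match describes letters, not binding.

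The 6 E-boxes are shown with their flanks, since Myc is a known regulator of this pathway, with the E-box in capitals. Counting the start as 1 and the base before it as −1, the first base of the E-box was at 3 in Pes1, 18 in Wdr43, 25 in Tsr1, 29 in Ltv1 and 38 in Utp20, and at −60 in Nop2. The windows are chr11:3963968-3963991 (plus), chr17:71616223-71616246 (plus), chr11:74898095-74898118 (plus), chr10:13193095-13193118 (minus), chr10:88826765-88826786 (minus) and chr6:125131814-125131837 (plus), in that order of genes.
Pes1: taggcagggCACGTGcgggaggaa
Wdr43: ccgggcgaaCACGTGgctgccgcg
Tsr1: cttggtgcaCACGTGgactgcaga
Ltv1: ctgtggaccCACGTGtggagctgc
Utp20: cactaactaCACGTGaggaaaa
Nop2: tccctggatCACGTGtgttccggt
None of these 6 genes passed the test for post-βgal against pre-βgal livers, with adjusted p-values of limma from 0.0597 for Utp20 to 0.538 for Wdr43. Nop2 was called higher after resection averaged over transgenes, with a log2 fold change of 0.65. Myc itself gave 434 and 399 in post-A20, 555 and 258 in pre-A20, 301 and 400.2 in post-βgal, and 273 and 275 in pre-βgal livers, and passed the test in none of the 7 comparisons.

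By role, the counts of members whose arrays did not overlap stand beside 20.4% of all genes with higher and 33% with lower post-βgal arrays. The PeBoW complex (Pes1, Bop1 and Wdr12) matures the large subunit RNAs. By their probe sets of highest mean, all 3 members had non-overlapping higher arrays in post-βgal than in pre-βgal livers. Log2 fold changes ran from 0.39 for Bop1 to 0.89 for Wdr12, and none passed the test. The other probe sets of Pes1 and Bop1 gave −0.13 and −0.11, and those of Wdr12 gave 0.50 and 0.14. All 4 measured abundant nucleolar proteins also had non-overlapping higher post-βgal arrays. They ranged from 0.65 for Nolc1, a chaperone of snoRNPs, to 1.29 for Ddx21, and Npm1 and Ddx21 passed. Of the 13 small subunit factors 10 did not overlap, with log2 fold changes from 0.05 to 0.82, and none passed the test. Of the 13 large subunit factors 10 did not overlap, with log2 fold changes from 0.21 to 1.29, and 2 passed, Ftsj3 and Gnl2. Ltv1, a factor of small subunit export, gave 1177 and 1086 in post-βgal livers, against 799 and 782 in pre-βgal livers. Gnl3, nucleostemin, a GTPase of the large subunit pathway, gave 1569 and 1301 in post-βgal livers, against 789 and 694 in pre-βgal livers. None of the 4 box H/ACA proteins separated the groups by its probe set of highest mean. Log2 fold changes were 0.01 for Nop10, 0.20 for the pseudouridine synthase Dkc1, 0.29 for Gar1 and 0.51 for Nhp2. The other probe sets of Nhp2 and Nop10 did separate them, with 0.67 and 0.25, and those of Dkc1 overlapped, with 0.19 and 0.29. Fbl, the methyltransferase of box C/D snoRNPs, gave 2089 and 1400 in post-βgal livers, against 2124 and 1171 in pre-βgal livers, which overlap (log2 fold change 0.12 ± 0.31, SE). Nop56 and Nop58, its partners in the particle, did not overlap.

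The calls in control livers rested on few arrays. Without post-βgal replicate 1 or without post-βgal replicate 2 no member was called, without any 1 of the 4 A20 arrays 1 was, without either pre-βgal array 4 were, and with only the 4 βgal arrays in the fit none was. With a replicate block within transgene, which sets each post-βgal array against the pre-βgal array of its number, 17 were called. In βgal livers that block also parts the replicate 1 arrays, those of high 3′ to 5′ ratio, from the replicate 2 arrays. Pairing and RNA integrity cannot be told apart in it, and it overlaps with the covariate of the β-actin ratio. Without both βgal replicate 1 arrays, those of high 3′ to 5′ ratio, the median log2 fold change was 0.54 and Ddx21 alone was called, and with the β-actin ratio as a covariate the median was 0.59 and 21 were called.

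The second comparison asked the same of livers that carried A20. In post-A20 against pre-A20 livers no member passed the test in either direction with limma, whereas 0.63% of all genes rose and 0.382% fell. At an unadjusted p under 0.05, 3 members were higher and none lower, against 8.88% and 6.54% of all genes. Of the 40 fold changes 33 were above 0 (54.4% over all genes), with a median log2 fold change of 0.11, against 0.02 over all genes. The arrays did not overlap in 17 members that were higher (29.4% of all genes) and 2 that were lower (22.3%).

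Ddx21 had the smallest adjusted p, 0.166, with 594 and 653 in post-A20 livers, against 339 and 376 in pre-A20 livers, a log2 fold change of 0.78 ± 0.23 (SE). Nolc1 gave 561 and 689.9 in post-A20 livers, against 335 and 432 in pre-A20 livers, which do not overlap (log2 fold change 0.69 ± 0.25, SE). Its other probe sets gave 0.02 with overlap and 0.43 without. Nop2, a ribosomal RNA methyltransferase long known as a proliferation antigen, gave 749 and 881 in post-A20 livers, against 504 and 582 in pre-A20 livers, also without overlap (log2 fold change 0.57 ± 0.18, SE). Others that had moved far in control livers showed little difference. Npm1 gave 1778 and 2093 in post-A20 livers, against 1610 and 2203 in pre-A20 livers, and Wdr12, named after its values were seen, gave 535 and 468.5 in post-A20 livers, against 395 and 671 in pre-A20 livers. Gnl3 gave 939 and 1023 in post-A20 livers, against 697 and 1195 in pre-A20 livers. In these 3 genes the post-A20 arrays lay within the range of the pre-A20 arrays. All 3 PeBoW members overlapped, with log2 fold changes from −0.09 to −0.01. Nip7, a large subunit factor, had the lowest fold change, a log2 of −0.37 ± 0.19 (SE), and the box H/ACA protein Nop10 had −0.28 ± 0.21 (SE).

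The median depended on the pre-A20 pools. It was 0.31 without pre-A20 replicate 2 and 0.003 without pre-A20 replicate 1, and Ddx21 alone was called when either pre-βgal array was left out or when only the 4 A20 arrays were fitted.

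**Figure D3:**
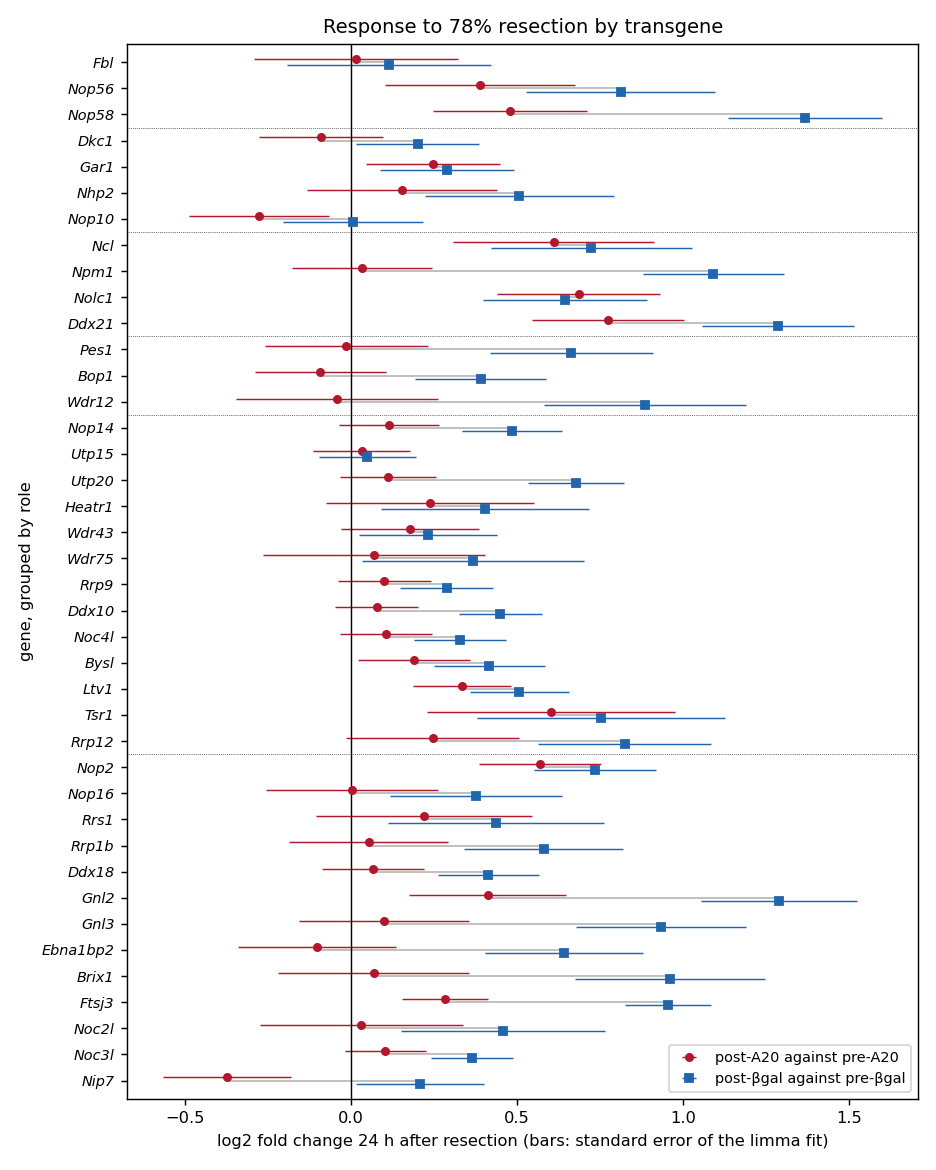
Log2 fold change 24 h after resection of each of the 40 genes, grouped by role, in A20 livers (circles) and βgal livers (squares), with the standard error of the limma fit as bars. All 40 squares and 33 of the circles lie above 0, and the gap is widest in Npm1, Wdr12, Brix1, Nop58 and Gnl2.

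Whether the 2 responses differed was tested as an interaction. The difference of the responses, A20 minus βgal, was above 0 in 1 of 40 members, Nolc1, against 56.9% of all genes. Nolc1 was at a log2 of 0.04, and its other probe sets gave −0.49 and −0.26. The median log2 of the members was −0.36, against 0.05 over all genes. With limma no member passed the test, nor did any of the 17790 genes (0% called), and at an unadjusted p under 0.05 5 members were lower and none higher, against 5.71% of all genes lower and 9.97% higher. These 5 were Npm1, Ftsj3, Nop58, Gnl2 and Utp20. The largest difference was that of Npm1, a log2 of −1.06 ± 0.30 (SE, adjusted p = 0.225), and the smallest adjusted p that of Ftsj3, 0.222, with a log2 of −0.67 ± 0.18 (SE). Npm1 was lowest on pre-βgal replicate 1, the array with the highest 3′ to 5′ ratio. Averaged over both transgenes, the response to resection was higher in 5 members and lower in none, against 2.83% and 1.93% of all genes. They were Ftsj3, Ddx21, Nop58, Gnl2 and Nop2, with log2 fold changes of 0.62, 1.03, 0.92, 0.85 and 0.65 and adjusted p-values of limma between 0.0125 and 0.033. That count became 0 when post-A20 replicate 2 or either pre-A20 array was left out, 1 when post-A20 replicate 1 or either post-βgal array was, and 8 when pre-βgal replicate 1 was. Without both βgal replicate 1 arrays Nop2 lost its call and Rrp12 gained one. With the replicate block within transgene 13 were called. Of the 5 neutrophil markers 3 rose in this comparison. Of the 40 averaged fold changes 38 were above 0, against 47.1% of all genes.

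The third comparison set A20 against βgal before resection. In pre-A20 against pre-βgal livers no member passed the test, whereas 0.714% of all genes were higher and 1.78% lower with limma. At an unadjusted p under 0.05, 1 member, Nolc1, was lower and none higher, against 13.4% and 8.41% of all genes. Of the fold changes 9 of 40 were above 0 (44.9% over all genes), with a median log2 of −0.13, against −0.03 over all genes. The arrays did not overlap in 10 members that were lower (29.3% of all genes) and 4 that were higher (22.1%). Nolc1 gave 335 and 432 in pre-A20 livers, against 863 and 568 in pre-βgal livers, a log2 fold change of −0.85 ± 0.25 (SE, adjusted p = 0.108). Its other probe sets gave −0.23 with overlap and −0.17 without. Npm1 went the other way without overlap, with 1610 and 2203 in pre-A20 livers, against 1221 and 1556 in pre-βgal livers. The median was 0.01 without pre-βgal replicate 1 or without pre-A20 replicate 1, and 3 members were called without pre-βgal replicate 2. Of the 5 neutrophil markers 2 were called lower in pre-A20 than in pre-βgal livers, and of 6 Kupffer cell and macrophage markers 1 was. These 6 had a median log2 of −0.46, with 1, Marco, above 0 at 0.51. The part of either marker list in the difference of the members was not tested.

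The fourth comparison set A20 against βgal 24 h after resection. It shares the post-βgal arrays with the first, so the 2 are not independent. In post-A20 against post-βgal livers no member passed the test, whereas 0.0956% of all genes were higher and 0.236% lower with limma, and the smallest adjusted p was 0.0536, for Ftsj3. In 37 of the 40 members both post-A20 arrays were below both post-βgal arrays (26.4% of all genes), and in none were both above (33.7%). At an unadjusted p under 0.05, 19 members were lower and none higher, against 9.56% and 10.1% of all genes. The median log2 fold change was −0.56, against 0.03 over all genes, and 1 member, Nop10, was above 0, at 0.01 ± 0.21 (SE), against 54.6% of all genes.

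Ftsj3 gave 274 and 311 in post-A20 livers, against 544 and 540.1 in post-βgal livers, a log2 fold change of −0.86 ± 0.13 (SE). Nop58 gave 224 and 284 in post-A20 livers, against 494 and 593 in post-βgal livers (−1.06 ± 0.23, SE). Rrp12, a factor that in yeast serves maturation and export of subunits, gave 135 and 155 in post-A20 livers, against 418 and 253 in post-βgal livers (−1.09 ± 0.26, SE). In Rrp12 the post-βgal replicates themselves were far apart. Gnl3 gave 939 and 1023 in post-A20 livers, against 1569 and 1301 in post-βgal livers. Ltv1 gave 849.8 and 883 in post-A20 livers, against 1177 and 1086 in post-βgal livers. Bop1 gave 505.5 and 515 in post-A20 livers, against 833.5 and 645 in post-βgal livers. In each of these the groups stood apart. The 3 members whose arrays overlapped were Nop10, with 2649 and 2490 in post-A20 livers, against 2961 and 2192 in post-βgal livers, and the small subunit factors Utp15 and Wdr43, with log2 fold changes of −0.06 and −0.13.

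Without post-βgal replicate 1 the median was −0.39 and without post-βgal replicate 2 it was −0.68, with no call in either case. Leaving out either pre-βgal array, which takes no direct part in this comparison but enters the shared estimate of spread, gave 5 calls, all lower. Of the 5 neutrophil markers 3, S100a8, S100a9 and Mmp8, were called lower in post-A20 than in post-βgal livers. By contrast 1, Ltf, had a fold change above 0, a log2 of 0.17. The part of these markers in the members' difference was not tested.

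Averaged over both times, 3 members fell in A20 against βgal livers and none rose, against 3.31% and 2.08% of all genes. These were Ftsj3 (log2 −0.52, adjusted p of limma 0.027), Nolc1 (−0.83, 0.041) and Rrp12 (−0.80, 0.0499). The other probe sets of Nolc1 gave −0.48 and −0.30 and were not called. Of the 40 fold changes 2 were above 0, against 49.7% of all genes, with a median log2 of −0.33, against −0.001 over all genes. Of the 5 neutrophil markers 3 fell in the same comparison and 2 had fold changes above 0, the higher that of Ltf, a log2 of 0.07. The median log2 of the markers was −0.88, and their part in the difference of the members was not tested. Without both βgal replicate 1 arrays, those of high 3′ to 5′ ratio, Nolc1 and Rrp12 lost their calls, Ftsj3 kept its own and Nop58 gained one, and with the β-actin ratio as covariate all 3 kept theirs. Rrp12 also lost its call under 6 other settings given in the closing section. The count was 14 without pre-βgal replicate 2, 2 without pre-βgal replicate 1, and 0 without any 1 of the other 6 arrays.

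Probe sets of a gene did not always tell the same story. Over all 82 probe sets of the list, 71 had a fold change above 0 in post-βgal against pre-βgal livers, against 43.5% of all probe sets. With p-values adjusted over probe sets, 3 of the 82 were called higher (3.66%), against 0.901% of all. They belonged to Ftsj3, Nop58 and Ddx21, the last by a probe set other than its main one. The main probe sets of Ddx21, Gnl2 and Npm1 were not called then, with adjusted p-values of limma of 0.0503, 0.0532 and 0.0603. Of the 30 members with more than 1 probe set, 21 had the same sign throughout in that comparison and 22 in post-A20 against post-βgal livers. Noc2l, a nucleolar factor of the large subunit pathway, was read through a probe set with 246.5 and 254 in post-A20 livers, 241 and 247.5 in pre-A20 livers, 753 and 427 in post-βgal livers, and 541 and 308 in pre-βgal livers. Its other probe set gave 404 and 391 in post-A20 livers, against 323 and 345 in post-βgal livers, which is the opposite order. Ebna1bp2 gave a log2 fold change of −0.90 in post-A20 against post-βgal livers by its main probe set and 0.13 and 0.16 by the others. Heatr1, a factor of the early small subunit particle, gave −0.49 and, by the others, 0.15 and 0.31. Ncl, nucleolin, gave −0.62 by its main probe set and −0.58, −0.09 and 0.10 by the others. One of these read 76.6 in pre-βgal replicate 1, against 380.5 to 1120 in the other 7 arrays, and pre-βgal replicate 1 was the array with the highest 3′ to 5′ ratio. The other probe set of Npm1 read 440.2 on that array, against 1282 to 2771 in the other 7 arrays. Nip7 gave a log2 fold change of 0.33 in pre-A20 against pre-βgal livers by its main probe set and −0.46 by the other. For A20 against βgal averaged over times it gave 0.04 and −0.44. The second was called lower with p-values adjusted over probe sets (limma, adjusted p = 0.0489).

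The wider pathway was read through 113 other genes of ribosome synthesis, all of them tested. In post-βgal against pre-βgal livers 90 of the 113 had a fold change above 0, against 42.5% of all genes, with a median log2 of 0.25. With limma 3 rose (2.65%) and none fell, against 1.5% and 0.748% of all genes. Dis3, a ribonuclease of the exosome that trims precursor RNAs, gave 622 and 578 in post-βgal livers, against 284 and 236 in pre-βgal livers, a log2 fold change of 1.16 ± 0.15 (SE, adjusted p = 0.0176). Polr1e, a subunit of RNA polymerase I, gave 330.0 and 249 in post-βgal livers, against 114 and 148 in pre-βgal livers (1.06 ± 0.20, SE, adjusted p = 0.0462). Esf1, a small subunit factor named for its role in yeast, gave 453 and 469 in post-βgal livers, against 305 and 283 in pre-βgal livers (0.62 ± 0.12, SE, adjusted p = 0.0424). In post-A20 against pre-A20 livers none of the 113 was called and the median log2 was 0.05. In post-A20 against post-βgal livers none was called and the median was −0.27. Both post-A20 arrays were below both post-βgal arrays in 73 of the 113 and above them in 15, against 26.4% and 33.7% of all genes. All 16 genes of the RNA polymerase I machinery were below 0 in that last comparison, with log2 fold changes from −0.95 for Polr1e to −0.03, where 54.6% of all genes were above 0. Averaged over transgenes, Dis3, Lyar and Esf1 rose after resection, 2.65% of the 113 against 2.83% of all genes, a share no higher than that of all genes. Utp6 (0.56), Sdad1 (0.50), Exosc8 (0.42), Rrp8 (0.39), Utp18 (0.37), Taf1d (0.24), Polr1b (0.21) and Exosc6 (−0.25) came next in their lists by p, with the averaged log2 fold change given, and did not pass the test. Averaged over times, Nvl, Polr1a and Exosc9, which were named after their values were seen, fell in A20 against βgal livers, 2.65% of the 113 against 3.31% of all genes, again no higher.

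**Figure D4:**
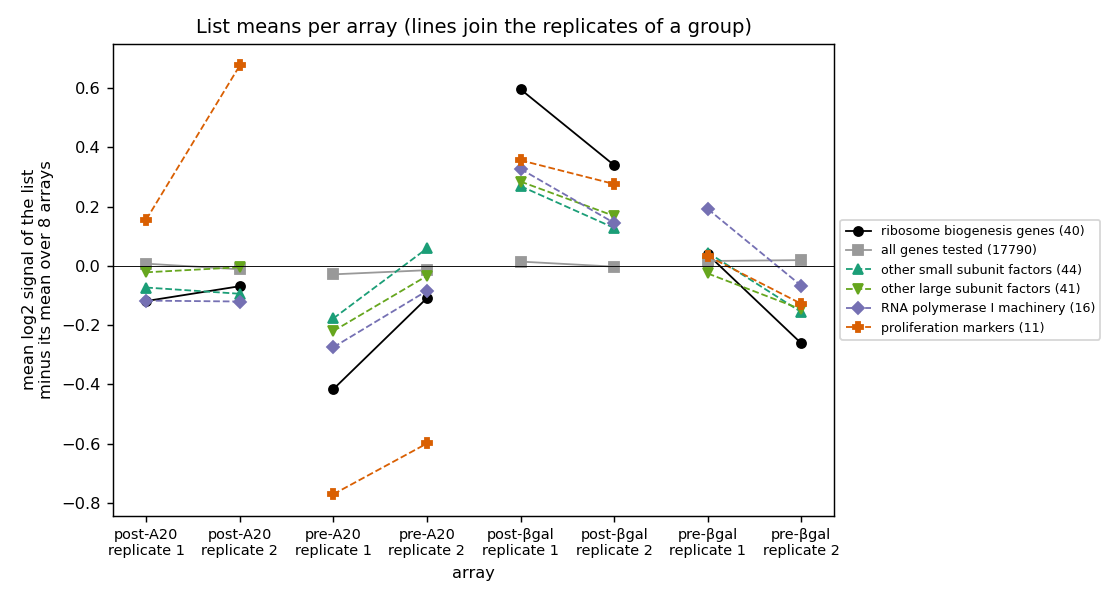
Mean log2(signal + 16) of each gene list on each array, minus the mean of the list over the 8 arrays, with a line joining the replicates of a group. The ribosome biogenesis genes peak on the post-βgal arrays, the proliferation markers have their lowest values on the pre-A20 arrays and their highest on post-A20 replicate 2, and the mean of all 17790 genes stays flat.

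Proliferation markers were ordered differently from the ribosome biogenesis genes. Their summed signal over 11 genes was 12790 and 19310 in post-A20 livers, against 6804 and 8216 in pre-A20 livers, and 15460 and 16320 in post-βgal livers, against 11140 and 12020 in pre-βgal livers. In post-A20 against pre-A20 livers 2 of the 11 rose with limma, Top2a and Mcm6, named after their values were seen, against 0.63% of all genes, and their median log2 fold change was 1.15, where no ribosome biogenesis gene was called and the median of that list was 0.11. In post-βgal against pre-βgal livers none of the 11 was called and their median was 0.37, where 5 ribosome biogenesis genes were called and the median was 0.50. The difference of the 2 lists was not tested.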

How the data were processed

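Deposited values were probe set intensities of 8 Affymetrix mouse arrays on a linear scale, already summarized and normalized by the authors. The sample records name MAS5, and the methods name invariant set normalization with a perfect match model in dChip. Neither source says which of these made the deposited signal. No sequencing depth applies to arrays, whose number limits the precision. Of 45101 probe sets, 42703 non-control sets with a group mean of at least 40 were kept, a minimum taken from the methods. They were log2-transformed after addition of 16 and fitted with 1 mean per group in limma 3.58.1 (R 4.3.3), with variances moderated along an intensity trend. Each gene was read through its single-symbol probe set of highest mean, named by the platform annotation, and p-values were adjusted over 17790 genes (Benjamini-Hochberg). A gene was called at an adjusted p under 0.05. All 4 groups shared 1 estimate of spread, with 4 residual degrees of freedom. The arrays of a group are separate pools of mice, so the p-values rest on a moderated spread between pools. In the βgal groups that spread also holds the difference in RNA integrity between replicates. Pre and post tissue can come from the same mice, which the main fit did not model.

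Groups came from the sample titles. With 2 arrays a group, arrays do not overlap when both of one group lie above both of the other. Described with values were the members called in a comparison, the member of highest mean signal in each role list and those whose probe sets disagreed most, with Wdr12 added after its values were seen, and for each other list the leading genes by p for resection averaged over transgenes. The members and lists were chosen with earlier results of these data known. Alternatives in scaling, filter, offset, variance model, probe set, samples fitted, replicate number, RNA integrity and call rule are given in the closing section.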

Additional observations from a re-analysis of the deposited data

How the results depend on the processing

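For the whole list, the median of the members kept its sign under every setting run in all comparisons but pre-A20 against pre-βgal. There it was −0.13 in the main fit and 0.00303 with the β-actin ratio as covariate. It was 0.00894 without both βgal replicate 1 arrays or without pre-βgal replicate 1 alone, and 0.0108 without pre-A20 replicate 1. Counts of called members moved more. In post-A20 against pre-A20 livers the count of 0 became 1 with only the 4 arrays compared, with a replicate block within transgene or without both βgal replicate 1 arrays, and 2 with the covariate. In post-βgal against pre-βgal livers the count of 5 became 0 with only the 4 arrays compared, 1 without both βgal replicate 1 arrays, 17 with the replicate block within transgene and 21 with the covariate. In post-A20 against post-βgal livers the count of 0 became 1 under quantile normalization, centering on the array median, a minimum of 100, an offset of 32, no intensity trend, robust moderation, averaging over the probe sets of a gene, leaving out both βgal replicate 1 arrays, and moderation over 1 probe set per gene, a setting chosen after seeing the data. It became 2 with only the 4 arrays compared, 5 with the covariate and 3 where the lower end of the 90% interval of the fold change had to reach 1.5. For resection averaged over transgenes the count of 5 became 13 with the block within transgene, 17 with the covariate and 2 by the interval. For A20 averaged over times the count of 3 became 5 with a replicate block over all arrays, with the covariate and with moderation over 1 probe set per gene, and 0 by the interval. It was 2 under quantile normalization, median centering, a minimum of 100, an offset of 32 and robust moderation, where Rrp12 lost its call, and 2 without both βgal replicate 1 arrays, where Nolc1 and Rrp12 did. Without an intensity trend it stayed at 3, with Utp20 in place of Rrp12. The difference of the responses had no call under any setting. The cause of these changes was not tested. Fits of fewer arrays hold fewer degrees of freedom, and their counts moved in both directions.

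Leaving out 1 array at a time gave counts of 0 to 1 for post-A20 against pre-A20, 0 to 4 for post-βgal against pre-βgal, 0 to 3 for pre-A20 against pre-βgal, 0 to 5 for post-A20 against post-βgal, 0 to 8 for resection averaged, 0 to 14 for A20 averaged and 0 to 0 for the difference. The medians then ranged from 0.00313 to 0.31, 0.35 to 0.74, −0.25 to 0.0108, −0.68 to −0.39, 0.24 to 0.43, −0.40 to −0.24, and −0.57 to −0.21, in the same order. Replicate numbers were not taken as pairs. Deviations from the group means correlated at 0.617 over all genes between the pre-βgal and post-βgal arrays of a number, at −0.0177 between the pre-A20 and post-A20 arrays, and between −0.145 and 0.156 in the other pairs of groups. The replicate block over all arrays changed no count beyond the one given. Noc2l reversed without both βgal replicate 1 arrays, to 0.20 in post-A20 against post-βgal livers and 0.0147 averaged over times, and without post-βgal replicate 1, to 0.20 and 0.0282, since its other probe set then had the highest mean. Leaving out single arrays, it ranged from −1.53 to 0.20 and from −1.12 to 0.0282. Among single members at an unadjusted p under 0.05, a setting added a call in 110 cases and removed one in 95.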
